A study of Mus musculus with 36 samples.

Results

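Liver RNA of 6 CTRL mice fasted for 24 h was compared with that of 6 freely fed CTRL mice, on 12 of the 36 arrays of the series. The arrays were those whose titles carry the CTRL fasted and CTRL fed names without an agonist, 1 array per mouse. CTRL is the label of the control animals, on a C57Bl/6J background, in a study of mice that lack adipose triglyceride lipase in white adipose tissue, labelled AAKO. The alleles the controls carry and the Cre driver behind the deletion are not given in the sources used here. All mice were male, ate a standard rodent diet under a 12 h light and 12 h dark cycle, and were killed 16 h after lights on (Zeitgeber time 16), when fed mice eat. Ages are not given in the sources used here. The fed mice belong to experiment 2 of the labels and the fasted mice to experiment 1, so feeding state and experiment cannot be told apart in the main comparison. Another CTRL group of 6 mice, fed and given 3 mg/kg CL316243 by gavage at Zeitgeber time 10, belongs to experiment 1 as well. CL316243 is an agonist of the beta 3 adrenergic receptor, which drives fat breakdown in adipocytes. For some lists and genes the fasted minus CL316243 difference is printed beside the main one. It does not cross experiments but carries the agonist, the vehicle and the gavage. Where it is not printed, only the value that crosses experiments is given. The question set by the design is how the liver transcriptome responds to the absence of food.

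The liver keeps blood fuel steady between meals. After a meal insulin drives glucose uptake, glycogen storage and the making of fatty acids and cholesterol through the transcription factors SREBP-1c, ChREBP and SREBP-2. Without food, insulin falls and glucagon and glucocorticoids rise, adipose tissue releases fatty acids, and the liver oxidises them, makes ketone bodies and exports glucose made from amino acids, lactate and glycerol. PPARα, a nuclear receptor that binds fatty acids, drives much of the fatty acid programme, FoxO factors carry much of the response to low insulin, and CREB that to glucagon.

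Each value is the log2 processed signal of a probe minus the 75th percentile on its array, called the level here, so a level of 0 is the brightness of that percentile and 1 unit is a factor of 2. A gene is said to be called, to have risen or to have fallen at a limma adjusted p under 0.05. Errors beside levels are SDs over 6 mice and errors beside log2 fold changes are standard errors of the fit. Between 34357 and 36921 of 56605 probes per array, 60.7% to 65.2%, were well above background. The markers of hepatocytes, Alb among them, were measured at a like level in both groups (list mean between 9.21 and 9.49 on the fed and between 9.14 and 9.39 on the fasted arrays). The arrays were washed in 2 batches, each with 3 fed and 3 fasted arrays, and calls made within a batch rest on 3 mice a group. The labels do not say that mice were pooled. The p-values measure the spread between mice within the groups of the whole series, AAKO and agonist-treated mice included. A fit of only the fed and fasted CTRL arrays called 9417 genes, against 10548 in the main fit.

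The 12 arrays separated by feeding state along their largest axis of variation. Component 1 of a principal component analysis took up 51.1% of the variance, with fed arrays between -57.1 and -45.3 and fasted arrays between 36.7 and 69.0. The second component held 11.9% and was set by CTRL fasted replicate 2, at 72.7 against -27.3 to 15.8 on the other 11 arrays. That array correlated with its own group at 0.980 on average, against 0.985 to 0.989 for the other 5 fasted arrays. It also had the highest fasted list mean of immediate early genes (2.10 against 0.37 to 1.08), of neutrophil markers (1.78 against -1.70 to 0.42) and of ribosome biogenesis genes (2.78 against 1.91 to 2.40). CTRL fasted replicate 5 had the highest mean of acute phase proteins among the fasted arrays (7.42 against 5.33 to 6.06), and CTRL fed replicate 6 among the fed arrays (6.78 against 5.37 to 5.84). Where leaving out 1 of these arrays moved the count of called genes of a list by over 1.5 times, the count without it is given too.

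**Figure D1:**
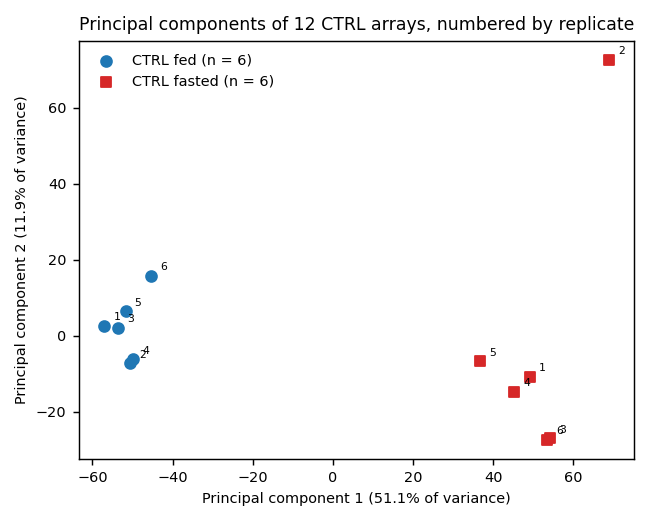
Principal components of the 12 CTRL arrays over the genes tested, with component 1 (51.1% of the variance) across and component 2 (11.9%) up; each point is 1 array, circles fed and squares fasted, numbered by replicate. Fed and fasted arrays lie on opposite sides of component 1, and fasted replicate 2 stands alone at 72.7 on component 2.

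Of 24098 genes tested, 10548 were called between CTRL fasted and CTRL fed livers, 43.8%. Of these, 4747 were higher in fasted livers (19.7% of the genes tested) and 5801 lower (24.1%). For 2437 genes all 6 fasted arrays lay above all 6 fed arrays (10.1%), and for 3068 they lay below (12.7%). Without CTRL fasted replicate 2 the calls numbered 9963, 4552 higher and 5411 lower. The share of calls that were higher was 45.0%, against 36.3% with arrays scaled to their median and 56.1% in the authors' deposited table, where the median over all genes stood at -0.11 and 0.02 in place of -0.05. Small differences near those medians therefore carry no direction of their own. Counts for gene groups are read against the 19.7% and 24.1% of all genes. Fasted against CL316243, within experiment 1, gave 8938 called genes (37.1%).

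The highest and lowest genes were named only where the groups did not overlap. Their probes also had to be well above background on all 6 arrays of the higher group. For these genes both traits are conditions of the choice, not results. The genes that rose most included several of fatty acid oxidation and lipid storage. Cyp4a14, a cytochrome P450 that hydroxylates the end carbon of fatty acids (chr4:115168609-115168668 on mm9), was at -5.10 to -3.95 (median -4.59) in fed and 2.45 to 3.10 (median 2.84) in fasted livers. It was well above background on 4 of 6 fed arrays, and the log2 fold change was 7.40 ± 0.35, adjusted p = 2.45e-16. Its neighbours Cyp4a10 and Cyp4a31, of the same family, rose by 5.93 ± 0.32 and 5.61 ± 0.31, and no array of either group overlapped for any of the 3. The probes of Cyp4a10 and Cyp4a31 share no run longer than 5 of 60 bases, and cross-hybridisation between their transcripts was not tested. Cidec (chr6:113374693-113374752), which enlarges lipid droplets, was at 0.04 to 0.91 (median 0.52) in fed and 4.61 to 7.70 (median 6.61) in fasted livers. All fasted arrays lay above all fed arrays, by 3.70 at the nearest pair (5.88 ± 0.41, adjusted p = 7.80e-13), with fasted replicate 5 the lowest and replicate 2 the highest.

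The other genes at the upper end were of several kinds. Igfbp1, a secreted binder of insulin-like growth factors held down by insulin (chr11:7102442-7102501), was at 1.39 to 5.80 (median 3.11) in fed and 7.64 to 9.36 (median 8.06) in fasted livers (4.77 ± 0.59, adjusted p = 6.10e-08), without overlap. Fgf21, a hepatokine released in fasting (chr7:52869305-52869364), was at -3.42 to -0.98 (median -1.75) in fed and 0.73 to 2.98 (median 2.77) in fasted livers (4.09 ± 0.59, adjusted p = 1.00e-06), also without overlap. Tg, which encodes thyroglobulin, the precursor of thyroid hormone, rose by 5.12 ± 0.44 (chr15:66682078-66682137, adjusted p = 5.97e-11) and was well above background on 2 of 6 fed and 6 of 6 fasted arrays. Defb1, an antimicrobial peptide (chr8:22905599-22905658), rose by 4.67 ± 0.34, from -3.72 ± 0.39 to 0.95 ± 0.83 (SD, n = 6). Rab30, a small GTPase of the Golgi apparatus (chr7:99985062-99985121), went from -1.05 ± 0.21 to 3.12 ± 1.04 (4.17 ± 0.34, adjusted p = 1.66e-11). Nipal1, of a family of magnesium transporters, Ntf5, a neurotrophin, and Hrob, a factor of homologous recombination, rose by 4.32, 4.09 and 4.44, each without overlap between the groups. Within experiment 1, fasted minus CL316243 was not called for Fgf21 (0.83, adjusted p = 0.287) or Nipal1 (0.53, adjusted p = 0.411). CL316243 minus fed, which crosses experiments, was 3.26 for Fgf21 and 3.79 for Nipal1. Fasted minus CL316243 was called for Tg (4.64), Ntf5 (3.65), Hrob (3.09), Defb1 (2.70), Igfbp1 (2.41) and Rab30 (1.39).

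The genes that fell most included Thrsp and Angptl8. Thrsp, a nuclear protein that promotes lipogenesis (chr7:104561649-104561708), was at 7.63 to 8.87 (median 8.35) in fed and 2.63 to 5.47 (median 3.45) in fasted livers (-4.64 ± 0.40, adjusted p = 5.63e-11). Angptl8, a feeding-induced hepatokine that acts on lipoprotein lipase (chr9:21641729-21641788), was at 5.28 to 7.75 (median 7.20) in fed and 1.79 to 3.83 (median 2.45) in fasted livers (-4.34 ± 0.60, adjusted p = 4.74e-07). For both genes the groups did not overlap.

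Others at the lower end have varied roles. Serpina9, a serine protease inhibitor, fell by 4.35 on the log2 scale (chr12:105234830-105234889, adjusted p = 4.19e-13), from 1.16 ± 0.40 to -3.19 ± 0.62 (SD, n = 6). Bhlha15, a transcription factor of secretory cells known as Mist1, had a log2 fold change of -3.69 ± 0.43 (chr5:144955175-144955234), Col27a1, a fibrillar collagen, one of -3.65 ± 0.23 (chr4:62995485-62995544) and Car3, a cytosolic carbonic anhydrase, one of -3.58 ± 0.30 (chr3:14871781-14871840). Hapln1, a link protein of the extracellular matrix, and H2bc23, a histone H2B gene, were well above background on 6 of 6 fed and 0 of 6 fasted arrays, and were at least 4.09-fold and at least 3.35-fold lower in fasted livers. These bounds set the fed mean against, for each fasted array, the higher of the faintest signal well above background and the probe's own signal.

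**Figure D2:**
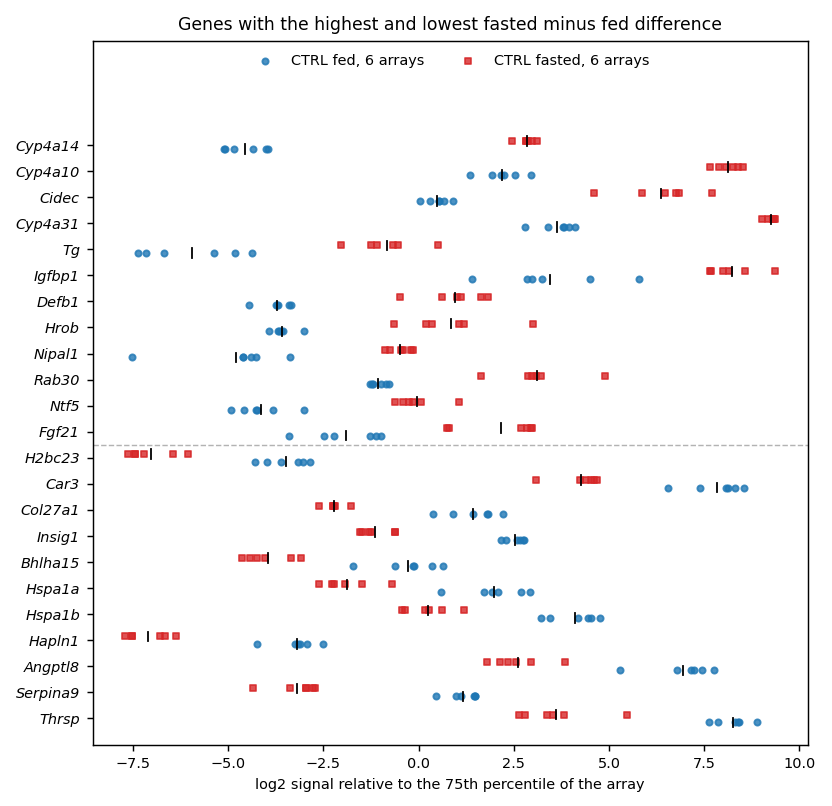
Levels (log2 signal minus the 75th percentile of each array, across) of the 12 genes with the highest and, below the dashed line, 11 of those with the lowest fasted minus fed difference under the naming rule; each point is 1 array, blue circles fed and red squares fasted, 6 a group, and black ticks are group means. The groups do not overlap for any of the 23 genes, a condition of the rule, and the mean differences run from 7.40 for Cyp4a14 to -4.64 for Thrsp.

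Targets of PPARα rose nearly as a block. Of 38 listed targets tested, 34 rose and 0 fell, with a median log2 fold change of 1.45, against a median of -0.05 over all genes. The list mean lay between 3.38 and 3.65 on the fed arrays and between 5.01 and 5.87 on the fasted arrays, with fasted replicate 5 the lowest. The 4 targets that were not called, named after their values were seen, were Fabp1 (-0.36), Cd36 (0.52), Ppargc1a (0.52) and Ucp3 (0.28). Fabp1, the abundant fatty acid binding protein of hepatocytes, had all fasted arrays below all fed arrays and an adjusted p of 0.0816. The mRNA of Ppara itself was at 5.82 to 6.38 (median 6.13) in fed and 5.34 to 5.99 (median 5.71) in fasted livers and had a log2 fold change of -0.41 ± 0.13, adjusted p = 0.0115, a call lost in the authors' deposited table (-0.30, adjusted p = 0.0793) and within either wash batch. Of the same list, 28 members were higher and 1 lower in fasted than in CL316243 livers (median 0.73).

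Entry of fatty acids into mitochondria and most steps of their oxidation there rose by modest amounts. Of 18 genes of the pathway 12 rose and 1 fell (median 0.54). Cpt1a, the gatekeeper enzyme that loads fatty acids onto carnitine (chr19:3385374-3385433), was at 5.67 to 6.14 (median 6.03) in fed and 6.91 to 7.07 (median 6.99) in fasted livers (1.04 ± 0.11, adjusted p = 8.15e-09), without overlap. The gene that fell, Echs1, encodes the short-chain enoyl-CoA hydratase (-0.28 ± 0.06, adjusted p = 9.64e-05). Oxidation in peroxisomes followed the same course, with 14 of 16 genes higher and 2 lower (median 0.66). Ehhadh, the peroxisomal bifunctional enzyme (chr16:21761914-21761973), was at 3.37 to 4.48 (median 4.02) in fed and 6.59 to 7.90 (median 7.39) in fasted livers (3.40 ± 0.24, adjusted p = 8.18e-13). Crat, which exports shortened acyl groups as carnitine esters, rose by 2.72 ± 0.19 from 2.20 ± 0.16 (SD, n = 6). Pecr, a peroxisomal enoyl-CoA reductase, was among the 2 that fell (-0.68).

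Acyl-CoA thioesterases, which split fatty acyl-CoA into fatty acid and coenzyme A, divided by member. Of 13 genes 8 rose and 3 fell (median 1.11). Acot3 (peroxisomal) and Acot2 (mitochondrial) rose by 4.01 ± 0.54 and 3.99 ± 0.29. Their probes share no run over 9 bases, but neither probe was set against the other transcript, and cross-hybridisation was not tested. Acot2 was at -1.63 to -1.20 (median -1.29) in fed and 1.04 to 3.50 (median 2.79) in fasted livers, without overlap. Acot11 and Acot7 fell, by 1.68 and 0.62 on the log2 scale, the second with overlapping groups and a call lost within wash batch 2. Around coenzyme A itself, 5 of 13 genes rose and 3 fell. Vnn1, a pantetheinase that recycles the vitamin part of coenzyme A, rose by 2.38 ± 0.24, and Slc25a42, which carries coenzyme A into mitochondria, by 0.78 ± 0.08. Nudt7, a peroxisomal hydrolase of coenzyme A, was at 8.10 to 8.43 (median 8.29) in fed and 6.08 to 6.79 (median 6.47) in fasted livers (-1.87 ± 0.14, adjusted p = 2.14e-12), without overlap.

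Genes of ketone body synthesis and export rose more often than they fell. Of 7 genes 4 rose and 1 fell (median 0.44). Slc16a1, a transporter that exports ketone bodies and lactate, rose by 1.25 ± 0.13. Bdh2, a cytosolic dehydrogenase, had a log2 fold change of -1.85 ± 0.20, adjusted p = 3.81e-09. Pdk4, a kinase that shuts off pyruvate dehydrogenase and so spares glucose (chr6:5433441-5433500), was at -1.18 to 0.45 (median -0.79) in fed and 1.20 to 4.31 (median 2.81) in fasted livers (3.45 ± 0.48, adjusted p = 6.33e-07), and the groups did not overlap.

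Genes of lipid droplets mostly rose while those of fatty acid synthesis fell. Of 24 genes of droplets and triglyceride turnover 13 rose and 4 fell (median 0.49). Plin2, the main coat protein of hepatocyte lipid droplets (chr4:86302847-86302906), rose from 5.72 ± 0.11 to 7.89 ± 0.52 (SD, n = 6; 2.18 ± 0.25, adjusted p = 1.39e-08), without overlap. Pnpla2, which encodes ATGL, the lipase that AAKO mice lack in white adipose tissue, was named after its values were seen, and rose by 1.57 ± 0.19 (adjusted p = 3.35e-08). Lpin1, a phosphatidate phosphatase and coactivator, was at 2.60 to 4.69 (median 4.08) in fed and 2.74 to 6.60 (median 3.52) in fasted livers, with a log2 fold change of -0.01 ± 0.48, adjusted p = 0.985. Its groups overlapped, and other Lpin1 probes gave 1.24 (unadjusted p = 0.00593), 0.18 and -0.10. Pnpla3, a lipase-like protein of lipid droplets driven by SREBP-1c, had a log2 fold change of -1.88 ± 0.52, adjusted p = 0.00365 with overlapping groups, and this call was lost within wash batch 2.

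Most of the lipogenesis genes tested fell. Of 24 genes 18 fell and 2 rose (median -1.02). Srebf1, whose product SREBP-1c switches on fatty acid synthesis under insulin (chr11:60013214-60013273), was at 6.48 to 7.33 (median 7.05) in fed and 3.01 to 4.28 (median 3.46) in fasted livers (-3.54 ± 0.19, adjusted p = 3.97e-15), without overlap. Fatty acid synthase, Fasn (chr11:120668460-120668519), was at 7.62 to 8.86 (median 8.02) in fed and 4.91 to 6.69 (median 5.95) in fasted livers (-2.17 ± 0.26, adjusted p = 3.37e-08). The stearoyl-CoA desaturase Scd1 was at 7.31 to 7.99 (median 7.65) in fed and 5.05 to 6.82 (median 5.79) in fasted livers (-1.75 ± 0.19, adjusted p = 7.80e-09), and all fasted arrays lay below all fed arrays for both genes. Fed replicate 4 had the highest lipogenesis mean of the fed arrays, 5.04 against 4.22 to 4.44 on the other 5. The 2 genes that rose were Elovl5, an elongase of polyunsaturated fatty acids (1.71 ± 0.15, adjusted p = 1.36e-10), and Acacb, the mitochondrial acetyl-CoA carboxylase (0.57 ± 0.22, adjusted p = 0.0373), a call lost without fed replicate 5 (0.45, adjusted p = 0.116) or fasted replicate 2 (0.42, adjusted p = 0.131), without any 1 of 5 other arrays, and within wash batch 1. Against CL316243 livers 18 of the 24 genes were lower and 2 higher in fasted livers (median -0.89).

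Glycolytic genes fell or did not pass the test. Of 15 genes of glycolysis and fructose use 10 fell and 0 rose (median -0.57). Pfkfb3, which makes the activator of phosphofructokinase, fell by 1.60 on the log2 scale (adjusted p = 0.0112), with overlapping groups and a call lost within wash batch 2. In glycogen metabolism 6 of 17 genes fell and 4 rose (2 without fed replicate 1). The branching enzyme Gbe1 and Ugp2, which makes the UDP-glucose used for glycogen, had log2 fold changes of -1.09 ± 0.12 and -1.14 ± 0.17, without overlap. Gaa, the lysosomal glucosidase that degrades glycogen, rose by 0.69 ± 0.07.

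Genes of glucose output rose more often than they fell, but the textbook marker Pck1 was not called. Of 13 genes of gluconeogenesis 6 rose and 2 fell (median 0.39). Pck1, the cytosolic PEP carboxykinase (chr2:172984307-172984366), was at 7.76 to 8.59 (median 8.41) in fed and 8.11 to 9.01 (median 8.55) in fasted livers, with a log2 fold change of 0.29 ± 0.18, adjusted p = 0.211 and overlapping groups. G6pc, glucose-6-phosphatase, which frees glucose for export (chr11:101238947-101239006), was at 5.79 to 6.43 (median 6.28) in fed and 6.80 to 7.93 (median 7.33) in fasted livers (1.16 ± 0.39, adjusted p = 0.0160). Its groups did not overlap, but the call was lost within wash batch 1. Got1, the cytosolic aspartate aminotransferase, rose by 1.50 ± 0.19 without overlap. Ppargc1a, a coactivator of gluconeogenic genes, was at 0.26 to 1.52 (median 1.21) in fed and 0.73 to 2.65 (median 1.68) in fasted livers (0.52 ± 0.24, adjusted p = 0.0821), with overlap. Leaving out fasted replicate 4 or 6 moved it past the threshold (0.67, adjusted p = 0.0255, and 0.65, adjusted p = 0.0341).

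Cholesterol synthesis and uptake fell nearly throughout the pathway. Of 24 genes 23 fell, each with all fasted arrays below all fed arrays, and the median was -2.13. The list mean was between 4.03 and 4.66 on fed and between 2.32 and 2.79 on fasted arrays. Insig1, which holds SREBP proteins in the endoplasmic reticulum and is itself an SREBP target (chr5:28404246-28404305), was at 2.17 to 2.77 (median 2.62) in fed and -1.55 to -0.62 (median -1.28) in fasted livers (-3.68 ± 0.17, adjusted p = 2.45e-16). The gene that rose was Hsd17b7, of a late step (0.57 ± 0.16, adjusted p = 0.00408), with overlapping groups and a call lost within wash batch 1. Within experiment 1, against CL316243 livers 24 of 24 genes, Hsd17b7 included, were lower in fasted livers (median -2.06).

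All chaperones tested fell. Of 20 genes of protein folding and quality control in the endoplasmic reticulum 20 fell (median -1.30), and of 17 heat shock genes of the cytosol and mitochondria 17 fell (median -1.46). The endoplasmic reticulum list mean was between 4.79 and 5.67 on fed and between 3.48 and 4.18 on fasted arrays. That of the heat shock list was between 5.20 and 5.74 on fed and between 3.67 and 4.15 on fasted arrays, and neither list overlapped between the groups. Folding of secreted proteins is governed by the unfolded protein response, whose factors ATF6 and XBP1 bind the endoplasmic reticulum stress element, while HSF1 binds heat shock elements in the promoters of cytosolic chaperones.

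The promoters of several of these genes hold the matching elements, and those shown were chosen after the values were seen to let the reader see the element in place. The sequences are from RefSeq on GRCm38.p6, 5′ to 3′ along the gene and ending at the base before the start of transcription. The endoplasmic reticulum stress element was searched as CCAAT and CCACG 9 bases apart on both strands, in the 250 bases before each start. It was found for 8 of the 18 listed genes with a promoter in the table, 44.4%, and for 24 of 13711 tested genes with a promoter, 0.175% (0.113% of 32851 promoters). The 8 genes were Hspa5, Hsp90b1, Calr, Canx, Pdia6, Dnajc3, Creld2 and Derl3. List and motif were both chosen from known biology, so the higher share is not a result of these data. All 20 listed genes fell, with or without the element, and its part in the fall was not tested. Capitals mark the element, which in Creld2, in Derl3 and at the second match of Hsp90b1 lies on the opposite strand.
Creld2 (chr15:88819506-88819645, + strand): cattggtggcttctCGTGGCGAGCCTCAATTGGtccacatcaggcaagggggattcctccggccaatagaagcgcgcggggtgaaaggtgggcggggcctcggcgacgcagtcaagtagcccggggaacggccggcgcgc
Derl3 (chr10:75893228-75893397, + strand): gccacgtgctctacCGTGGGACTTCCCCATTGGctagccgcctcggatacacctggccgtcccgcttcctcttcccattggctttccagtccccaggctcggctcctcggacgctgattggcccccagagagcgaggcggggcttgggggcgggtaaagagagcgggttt
Pdia6 (chr12:17266469-17266588, + strand): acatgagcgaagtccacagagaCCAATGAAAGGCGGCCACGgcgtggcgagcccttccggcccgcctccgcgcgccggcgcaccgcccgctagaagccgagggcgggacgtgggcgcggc
Hspa5 (chr2:34771970-34772089, + strand): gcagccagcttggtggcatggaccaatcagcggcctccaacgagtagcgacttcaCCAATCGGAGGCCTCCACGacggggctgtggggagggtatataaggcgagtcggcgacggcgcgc
Hsp90b1 (chr10:86705445-86705664, - strand): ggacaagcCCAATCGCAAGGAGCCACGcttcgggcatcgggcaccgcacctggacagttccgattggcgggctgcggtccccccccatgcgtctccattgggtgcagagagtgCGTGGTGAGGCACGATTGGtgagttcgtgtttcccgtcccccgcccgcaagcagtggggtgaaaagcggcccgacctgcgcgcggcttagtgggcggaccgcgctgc

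Creld2, a secreted protein induced by endoplasmic reticulum stress (chr15:88656997-88657056 on mm9), was at 6.36 to 8.04 (median 7.38) in fed and 4.59 to 5.04 (median 4.81) in fasted livers (-2.48 ± 0.24, adjusted p = 5.52e-10). Its groups did not overlap. Sdf2l1, a partner of BiP (chr16:17130426-17130485), was at 2.77 to 4.56 (median 3.91) in fed and 0.23 to 2.47 (median 0.73) in fasted livers (-2.83 ± 0.31, adjusted p = 7.07e-09). Hspa5, which encodes BiP, the central chaperone of the compartment, was at 7.77 to 8.67 (median 8.17) in fed and 6.56 to 6.91 (median 6.79) in fasted livers (-1.41 ± 0.14, adjusted p = 7.96e-10), again without overlap. Derl3, a factor of protein export for degradation, was at 0.13 to 4.06 (median 1.60) in fed and -1.86 to 1.19 (median -0.63) in fasted livers (-2.26 ± 0.50, adjusted p = 4.04e-04), with overlapping groups and a call lost within wash batch 1. The fold changes of Pdia6, a disulfide isomerase, and of Hsp90b1, the chaperone Grp94, were -1.46 ± 0.14 and -0.91 ± 0.12.

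For the heat shock genes the element was searched as GAANNTTC on both strands. It was found for 7 of 14 listed genes with a promoter in the table, 50%, against 6.62% of all tested genes with a promoter (6.69% of promoters). This list and motif were likewise chosen from known biology. All 17 listed genes fell, with or without the element, and its part in the fall was not tested.
Hspa1a (chr17:34972157-34972276, - strand): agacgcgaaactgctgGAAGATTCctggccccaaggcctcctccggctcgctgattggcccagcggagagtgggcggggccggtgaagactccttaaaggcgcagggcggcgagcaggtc
Hspb1 (chr5:135887789-135887918, + strand): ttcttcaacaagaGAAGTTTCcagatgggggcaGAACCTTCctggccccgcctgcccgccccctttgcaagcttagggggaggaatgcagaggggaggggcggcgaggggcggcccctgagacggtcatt

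Hspa1a and Hspa1b encode nearly the same inducible HSP70 protein from neighbouring genes. Their probes share no run over 5 bases, and cross-hybridisation was not tested. Hspa1a (chr17:35106766-35106825) was at 0.58 to 2.94 (median 2.01) in fed and -2.61 to -0.70 (median -2.07) in fasted livers (-3.86 ± 0.38, adjusted p = 8.01e-10). Hspa1b (chr17:35093374-35093405) was at 3.20 to 4.76 (median 4.32) in fed and -0.43 to 1.20 (median 0.22) in fasted livers (-3.86 ± 0.29, adjusted p = 3.60e-12), and neither gene overlapped between the groups. Hspb1, the small heat shock protein HSP27, fell by 1.05 on the log2 scale with overlapping groups. Hspd1, the mitochondrial HSP60, fell least (-0.29 ± 0.07), and its call was lost within wash batch 2. The heat shock difference was smaller within experiment 1: fasted livers were lower than CL316243 livers for 10 of 17 genes (median -0.38), and Hspa1a differed there by -0.26 (adjusted p = 0.634). For the endoplasmic reticulum list the same comparison gave 17 of 20 lower and a median of -0.69. How much of the fasted minus fed difference belongs to the experiment cannot be told apart.

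**Figure D3:**
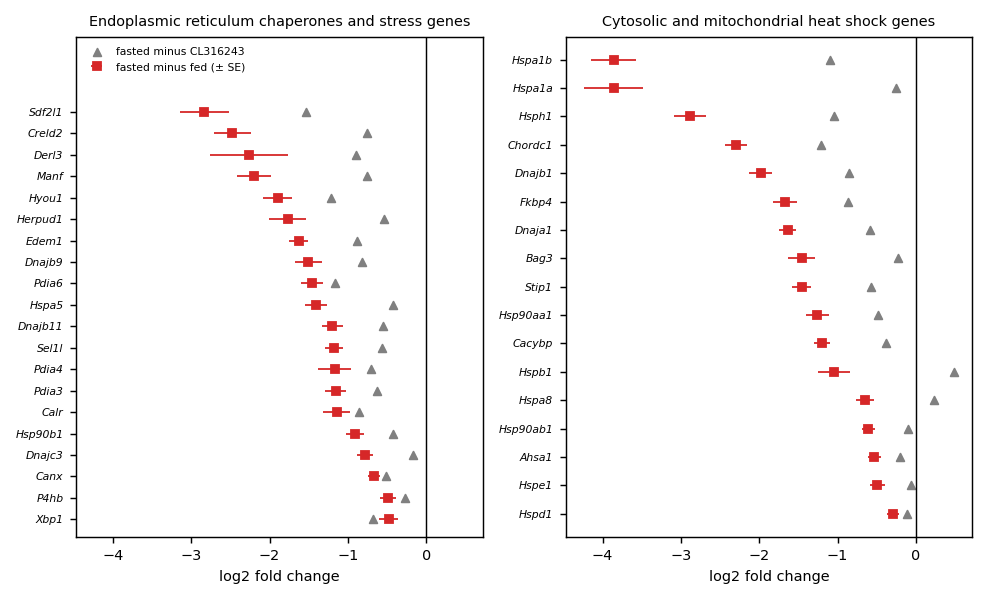
Log2 fold changes (across) of each listed chaperone gene, endoplasmic reticulum list on the left and heat shock list on the right; red squares with bars are fasted minus fed ± SE from the fit over 36 arrays and grey triangles are fasted minus CL316243. All squares lie below 0, from -0.29 for Hspd1 to -3.86 for Hspa1b.

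Interferon-stimulated genes fell as a group. Of 28 genes 22 fell and 2 rose (median -0.83). The list mean lay between 1.34 and 1.81 on fed and between 0.40 and 0.93 on fasted arrays. Interferons act through transcription factors that bind interferon response elements, and the core GAAANNGAAA was searched on both strands of the 250 bases before each start. It was found for 13 of 25 listed genes with a promoter in the table, 52%, against 3.30% of all tested genes with a promoter (2.98% of promoters). Here too list and motif came from known biology, so the higher share is not a result of these data. The 2 promoters shown carry several overlapping copies, in capitals.
Isg15 (chr4:156200819-156200918, - strand): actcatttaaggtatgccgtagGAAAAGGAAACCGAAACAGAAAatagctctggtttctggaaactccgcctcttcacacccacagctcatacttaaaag
Oas1a (chr5:120907526-120907625, - strand): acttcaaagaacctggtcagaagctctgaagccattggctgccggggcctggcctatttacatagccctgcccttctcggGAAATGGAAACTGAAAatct

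Of the 13 genes with the core, 10 fell and 1 rose, against 22 and 2 of the whole list of 28. Isg15, a ubiquitin-like modifier, was at 2.78 to 3.49 (median 3.09) in fed and 0.91 to 2.26 (median 1.91) in fasted livers (-1.32 ± 0.21, adjusted p = 7.00e-06). Oas1a, a sensor of double-stranded RNA, was at 1.58 to 2.48 (median 2.06) in fed and 0.22 to 1.01 (median 0.43) in fasted livers (-1.45 ± 0.20, adjusted p = 3.16e-07), and for neither did the groups overlap. The chemokine Cxcl10 fell most (-1.66 ± 0.31, adjusted p = 6.15e-05), with the groups apart by only 0.02, followed by Ifi44 (-1.49 ± 0.18). Rsad2, an antiviral enzyme, rose (0.73 ± 0.22, adjusted p = 0.00804) with overlapping groups, and that call was lost within either wash batch, as was that of Tap1, the other gene that rose (0.25), which was also lost without any 1 of 8 arrays. Kupffer cell and macrophage markers had a median of -0.71 with 3 of 11 lower (27.3%, against 24.1% of all genes). Against CL316243 livers, within experiment 1, all 28 interferon-stimulated genes were lower in fasted livers (median -1.34). There 0 Kupffer cell and macrophage markers were lower and 0 higher (median 0.27). The part of these markers in the interferon result was not tested.

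Insulin and FoxO signalling genes moved in both directions. Of 20 genes 5 rose and 9 fell (median -0.20). Besides Igfbp1, Cdkn1a, the p21 inhibitor of the cell cycle (chr17:29237377-29237436), was at -1.16 to 0.04 (median -0.40) in fed and 1.73 to 4.98 (median 3.61) in fasted livers (3.96 ± 0.40, adjusted p = 1.42e-09), without overlap. The insulin receptor substrate Irs2, a FoxO and SREBP-1c regulated adaptor named after its values were seen, rose by 2.82 ± 0.31. Trib3, a pseudokinase that restrains Akt, rose by 2.04 ± 0.32 without overlap. Bcl6, a transcriptional repressor, had a log2 fold change of -2.41 ± 0.54, adjusted p = 4.88e-04, lost within wash batch 1, and another of its probes gave -1.16 (unadjusted p = 0.0989). Pik3r1, a regulatory subunit of PI3 kinase, had one of -1.05 ± 0.16. In the growth hormone and IGF axis 4 of 16 genes rose and 4 fell, against 5 and 2 in the authors' deposited table. Igf1 (chr10:87393516-87393575) was at 7.44 to 7.65 (median 7.58) in fed and 7.50 to 7.77 (median 7.72) in fasted livers (0.13 ± 0.06, adjusted p = 0.0853), a value called in the authors' deposited table (0.22, adjusted p = 0.00400) and under 4 other settings, while another Igf1 probe gave 1.78 (unadjusted p = 0.0155). Igfals, which stabilises circulating IGF-1, fell by 1.15 on the log2 scale without overlap.

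Genes that differ between male and female liver, set by the pattern of growth hormone pulses, shifted in these males. Of 14 listed male-biased genes 13 were tested, of which 7 fell and 1 rose. Of 14 listed female-biased genes only 8 were tested, of which 4 rose and 1 fell, so the counts leave out the rest of that list. Hsd3b5, a male-specific steroid enzyme (chr3:98422576-98422635), was at 5.29 to 5.96 (median 5.84) in fed and 1.24 to 3.09 (median 2.42) in fasted livers (-3.38 ± 0.24, adjusted p = 1.45e-12). The organic anion transporter Slco1a1 was at 3.60 to 3.96 (median 3.87) in fed and 1.67 to 2.69 (median 2.39) in fasted livers (-1.53 ± 0.14, adjusted p = 1.45e-10), and neither overlapped. Cyp2b9 (chr7:26995607-26995666), higher in female liver and a target of the receptor CAR, was at -0.58 to -0.20 (median -0.29) in fed and 1.53 to 5.07 (median 3.94) in fasted livers (4.00 ± 0.64, adjusted p = 4.86e-06). Acot3 is on this list too. The female-biased gene that fell, Cyp2a4, had a log2 fold change of -1.58 ± 0.32, adjusted p = 1.20e-04 with overlapping groups, lost within wash batch 2. Elovl3, the male-biased gene that rose (1.16), had overlapping groups and was not called within wash batch 1 (adjusted p = 0.0530).

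Among hepatokines 6 of 22 rose and 8 fell (8 and 7 in the authors' deposited table), and Igfbp1, Fgf21 and Angptl8 have been given above. Angptl4, an inhibitor of lipoprotein lipase and PPARα target (chr17:33911880-33911939), was at 5.38 to 6.15 (median 5.77) in fed and 7.21 to 7.90 (median 7.49) in fasted livers (1.74 ± 0.23, adjusted p = 3.13e-07), without overlap. Lect2, a secreted chemotactic factor, fell by 1.26 on the log2 scale, without overlap. In the lipoprotein list 7 of 21 genes rose and 7 fell (median -0.02). The member that rose most was Apoa4, an apolipoprotein of triglyceride-rich particles (chr9:46051206-46051266). It was at 4.09 to 5.19 (median 4.76) in fed and 7.63 to 9.06 (median 8.62) in fasted livers (3.88 ± 0.27, adjusted p = 7.81e-13), without overlap.

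Clock genes changed at the single time sampled, so a change of level and a shift of phase cannot be told apart. Of 19 genes 10 fell and 4 rose (median -0.62). Within experiment 1, 9 were lower and 5 higher in fasted than in CL316243 livers (median -0.17). Per2, a repressor arm gene (chr1:93312595-93312654), was at 3.98 to 4.13 (median 4.07) in fed and -0.22 to 1.21 (median 0.57) in fasted livers (-3.54 ± 0.16, adjusted p = 2.45e-16), without overlap, and another of its probes fell by 0.82. Arntl, which encodes the activator BMAL1, was at -1.48 to 0.47 (median -0.67) in fed and 0.41 to 1.43 (median 1.37) in fasted livers (1.75 ± 0.28, adjusted p = 6.39e-06), with overlap. Ciart, a repressor of the clock, was at -0.63 to 0.91 (median 0.03) in fed and -4.27 to 0.54 (median -2.30) in fasted livers (-2.26 ± 0.53, adjusted p = 7.46e-04), with overlapping groups and a call lost within wash batch 2. Another Ciart probe gave -1.06 (unadjusted p = 0.00458). BMAL1 and CLOCK bind the E-box CACGTG, found here for 5 of 16 clock genes with a promoter, 31.2%, against 8.83% of all tested genes with one (6.02% of promoters). Clock list and E-box were both chosen from known biology, so that higher share is not a result of these data. Of the 5 genes with the E-box 3 fell and 0 rose, against 10 and 4 of the whole list of 19. The Ciart promoter holds 3 E-boxes, in capitals, more than any other listed clock gene.
Ciart (chr3:95882229-95882358, - strand): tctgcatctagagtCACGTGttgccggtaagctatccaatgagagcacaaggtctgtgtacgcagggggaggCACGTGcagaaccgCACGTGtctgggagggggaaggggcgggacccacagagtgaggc

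The same search found few or no matches in 4 other lists, which says only that these letters are not in these windows. TCACNCCAC, a sterol regulatory element, was found for 1 of 16 cholesterol genes with a promoter (Hmgcs1), against 1.24% of all tested genes with one (1.05% of promoters). GTAAACA, a FoxO site, was found for 1 of 14 insulin and FoxO genes (Akt1; 2.93% of genes, 3.17% of promoters). TGACGTCA, the cAMP response element, was found for 0 of 10 genes of glucagon signalling (2.63%, 1.55%). A PPAR response element, a direct repeat spaced by 1 base, was found for 0 of 30 PPARα targets (0.0729%, 0.0517%).

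Genes downstream of glucagon and glucocorticoids gave a mixed picture. Of 14 genes of glucagon and cAMP signalling 5 rose and 2 fell, against 1 without fed replicate 4 or fasted replicate 1, and 7 and 1 in the authors' deposited table. Within experiment 1, 2 were higher and 2 lower in fasted than in CL316243 livers (median -0.03, against 0.35 for fasted minus fed). Pde4d, a phosphodiesterase that degrades cAMP, was at -4.41 to -2.82 (median -3.50) in fed and -1.52 to -0.78 (median -1.20) in fasted livers (2.43 ± 0.21, adjusted p = 8.01e-11), without overlap. Of 14 glucocorticoid targets 6 rose and 4 fell (4 and 3 without fasted replicate 2). Tsc22d3, a standard target known as GILZ, was at 5.54 to 6.03 (median 5.71) in fed and 3.48 to 4.47 (median 4.39) in fasted livers (-1.56 ± 0.24, adjusted p = 3.27e-06), so it fell without overlap. Mt2, a metallothionein that buffers zinc, was at 2.30 to 9.48 (median 3.71) in fed and 7.86 to 9.89 (median 9.17) in fasted livers (4.62 ± 0.94, adjusted p = 1.46e-04). The overlap came from fed replicate 6, at 9.48 against 2.30 to 3.89 on the other fed arrays, and the call was lost within wash batch 2, which holds that array. Mt1 gave 3.52 ± 0.68, adjusted p = 7.78e-05 with its call lost within wash batch 2 too, and the same fed array stood apart, at 9.64 against 3.92 to 5.86. Of 16 immediate early genes 3 rose and 1 fell (without fasted replicate 2, 2 and 2). Gadd45b, a stress sensor of that list, was at -2.21 to -1.28 (median -1.53) in fed and 1.17 to 3.85 (median 1.46) in fasted livers (3.42 ± 0.32, adjusted p = 2.81e-10), with the highest value in fasted replicate 2 and no overlap.

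Amino acid breakdown was split nearly evenly. Of 36 genes 13 rose and 11 fell (median 0.13). Sdsl, a serine dehydratase-like enzyme, rose by 1.88 ± 0.14, and Aass, of lysine breakdown, by 1.52 ± 0.17. Haao, of the tryptophan route to NAD, and Aldh4a1, of proline breakdown, had log2 fold changes of -0.98 and -0.84, and another Haao probe gave 0.12 (unadjusted p = 0.522). In the urea cycle, which disposes of their nitrogen, 4 of 10 genes rose and 4 fell (2 and 4 with arrays scaled to their median). Asl and Arg1 rose by 0.99 ± 0.10 and 0.76 ± 0.07, and Otc fell by 0.66 on the log2 scale, all 3 without overlap. Hepatocytes near the portal vein carry most of these functions, and of 14 periportal genes 5 rose and 2 fell. Of 14 genes of hepatocytes around the central vein 2 rose and 8 fell (median -0.56).

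Bile acid and drug metabolism genes also moved both ways. Of 20 bile acid genes 6 rose and 6 fell. Cyp7a1, the rate-limiting enzyme of bile acid synthesis (chr4:6193456-6193515), was at 3.94 to 4.52 (median 4.00) in fed and 3.76 to 5.50 (median 4.20) in fasted livers (0.24 ± 0.42, adjusted p = 0.683), with overlap. Cyp8b1, which sets the share of cholic acid, was at 1.02 to 2.10 (median 1.54) in fed and 3.41 to 3.94 (median 3.46) in fasted livers (2.03 ± 0.22, adjusted p = 5.11e-09), and Cyp2c70, which makes muricholic acids, was at 7.74 to 8.44 (median 8.16) in fed and 4.58 to 6.55 (median 6.22) in fasted livers (-2.13 ± 0.22, adjusted p = 1.65e-09), both without overlap. Among drug-metabolising enzymes and receptors 7 of 25 rose and 9 fell. Cyp2b10, the standard target of CAR (chr7:26711522-26711581), was at 0.74 to 1.31 (median 1.03) in fed and 2.92 to 6.43 (median 5.37) in fasted livers (4.00 ± 0.58, adjusted p = 9.77e-07), without overlap. Its probe shares no run over 10 bases with that of Cyp2b9, but neither probe was set against the other transcript, and cross-hybridisation was not tested.

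Stress and growth programmes outside the chaperones differed in direction, and the called cell cycle genes and NRF2 targets were mostly lower. Of 23 targets of ATF4, the factor of amino acid shortage, 5 rose and 5 fell, with Atf5 (1.66 ± 0.15) and Trib3 the highest. Of 14 targets of NRF2, the oxidative stress factor, 2 rose and 7 fell (3 and 5 after quantile normalization), with Srxn1, which repairs peroxiredoxins, the highest (1.18 ± 0.08, adjusted p = 4.46e-13). Of 22 cell cycle genes 11 fell and 1 rose, Mcm5 of the replicative helicase by the most (-1.55 ± 0.24, adjusted p = 2.84e-06). Autophagy and lysosome genes rose in 12 and fell in 5 of 27 cases (9 and 8 with arrays scaled to their median, 16 and 3 in the authors' deposited table). Ctsl, a lysosomal protease, rose by 1.05 ± 0.12 and Ulk2, a kinase that starts autophagy, fell by 1.24 on the log2 scale, both without overlap. Of 31 proteasome subunits 12 rose and 3 fell, led by Psmd4, a ubiquitin receptor (0.97 ± 0.06, adjusted p = 2.14e-14). The proteasome counts were 18 and 0 after quantile normalization, 17 and 0 in the authors' deposited table, and 9 and 6 with arrays scaled to their median. Of 26 ribosome biogenesis genes 5 rose and 3 fell. These were 8 and 2 without fasted replicate 5, 4 and 3 without fasted replicate 2, 7 and 1 in the authors' deposited table, and 3 and 3 with arrays scaled to their median.

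Oxidative phosphorylation and ribosomal protein genes differed by small amounts, and the number called moved with the scaling. Of 57 genes of oxidative phosphorylation 35 fell and 0 rose (median -0.18). The number that fell was 17 after quantile normalization, 16 in the authors' deposited table and 45 with arrays scaled to their median, and 0 rose under each of these. Ndufs8, of complex I, was the lowest (-0.54 ± 0.06, adjusted p = 4.62e-09). Of 79 ribosomal protein genes 21 fell and 2 rose (1 without any 1 of 4 arrays; median -0.09), and the number that fell was 7 after quantile normalization and 42 with arrays scaled to their median.

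**Figure D4:**
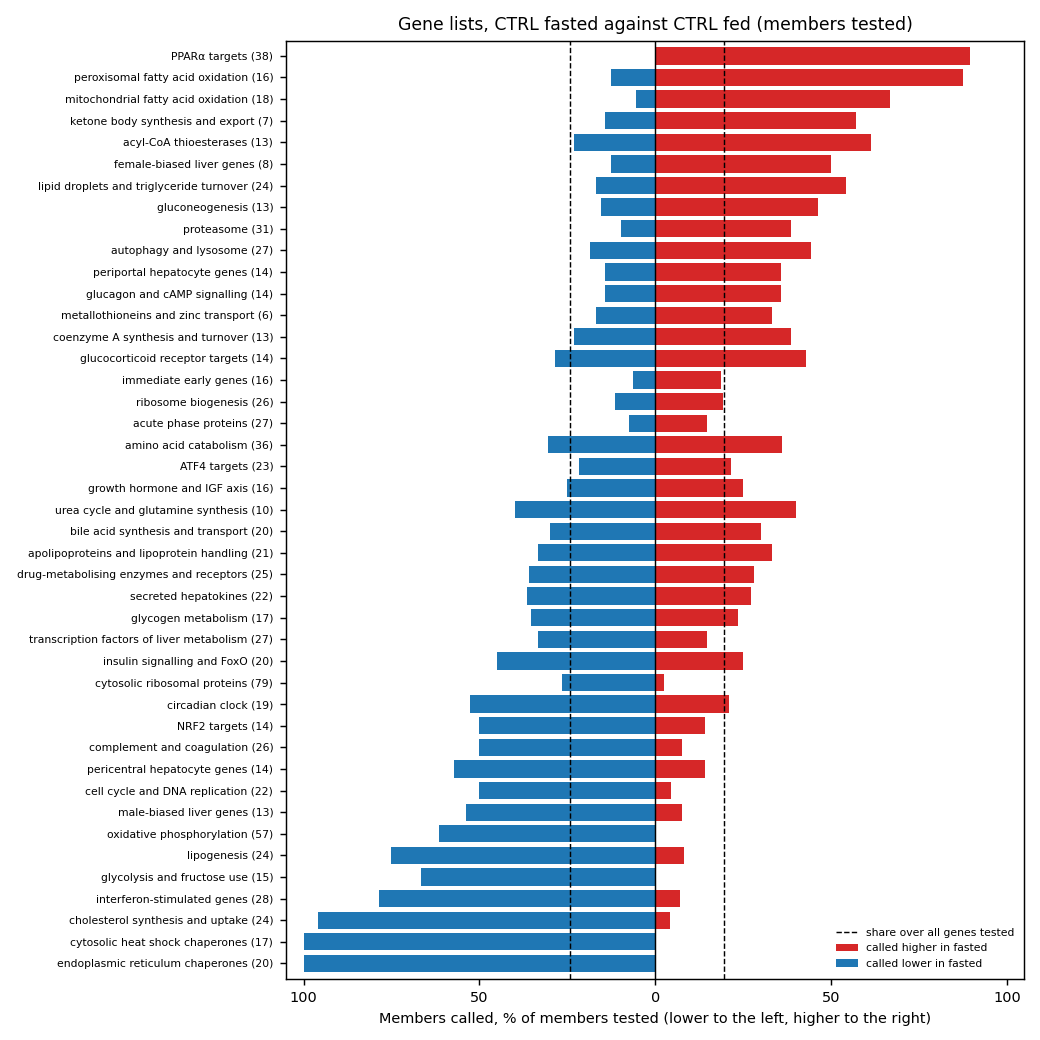
Share of the tested members of each of 43 gene lists called higher (red, to the right) or lower (blue, to the left) in CTRL fasted against CTRL fed livers, in percent of the members tested, whose number is in brackets. Dashed lines mark the shares over all genes tested, 19.7% higher and 24.1% lower; PPARα targets stand at 89.5% higher and both chaperone lists at 100% lower.

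Acute phase genes, the liver's response to inflammation, did not separate the groups. Of 27 genes 4 rose and 2 fell (3 and 2 without fasted replicate 5, 4 and 2 without fed replicate 6), and the list means of single mice spread widely in both groups. Saa4, a constitutive member of the serum amyloid A family (chr7:53983662-53983721), was at 5.78 to 6.87 (median 6.11) in fed and 2.72 to 3.59 (median 3.09) in fasted livers (-2.99 ± 0.25, adjusted p = 5.05e-11), without overlap. Il1rn, the interleukin-1 receptor antagonist, rose (2.87 ± 0.43, adjusted p = 2.17e-06) without overlap and was well above background on 5 of 6 fed arrays. Another Il1rn probe gave 1.08 (unadjusted p = 1.37e-04). Steap4, a metalloreductase, fell by 2.60 on the log2 scale. Of 26 complement and coagulation genes 13 fell and 2 rose (median -0.26), with Klkb1, plasma prekallikrein, and F11, factor XI, the lowest (-0.87 and -0.82).

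Most markers of other liver cells were not called, and neither were most genes tested (43.8% were called). The share called was 57.1% for stellate cell, 50% for sinusoidal endothelial and 50% for cholangiocyte markers, on few genes each. In whole tissue fewer cells of a type and less RNA per cell cannot be told apart. Of 11 Kupffer cell and macrophage markers 3 were lower and 0 higher. Their list mean was between 1.67 and 2.96 on fed and between 0.89 and 2.75 on fasted arrays, and 9 were lower without fasted replicate 2, 10 without fasted replicate 5 and 6 without fed replicate 2. Neutrophil markers rose in 1 of 9 cases, with or without fasted replicate 2 (2 without fasted replicate 1 or 4), and the most variable ones stood high in fasted replicate 2. Of the markers of T cells 1 of 6 was higher, of B cells 1 of 4, and of NK cells 1 of 4 was lower. The count for B cells was 0 without fasted replicate 5 or 6 or fed replicate 6, and 0 NK cell markers were lower without fed replicate 3 or fasted replicate 1 or 4. In T cells 1 marker was lower without fed replicate 4 or fasted replicate 5. Of sinusoidal endothelial markers 1 rose and 3 fell of 8, of stellate cell markers 2 and 2 of 7 (1 and 2 without any 1 of 9 arrays), and of cholangiocyte markers 0 and 3 of 6. The adipocyte list mean was between -4.27 and -2.45 over the 12 arrays, a range set by the fasted ones, and 0 of 3 pancreatic markers was called (1 was lower without fasted replicate 3 or fed replicate 5).

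**Figure D5:**
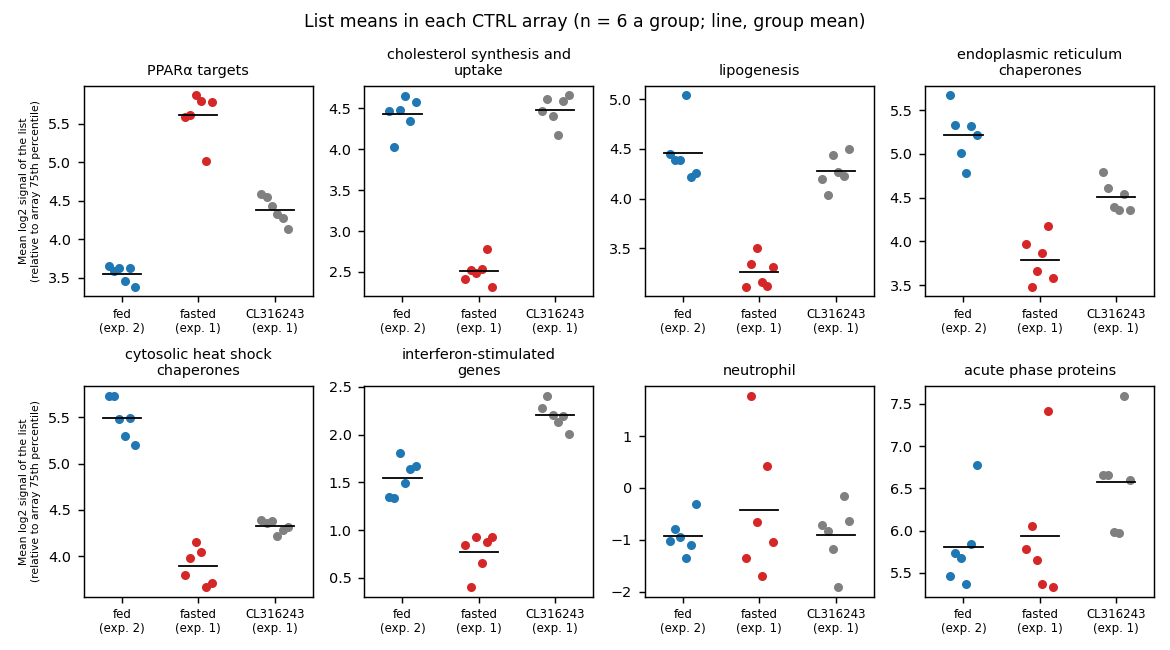
Mean level of 6 gene lists and 2 marker lists (up, log2 signal minus the 75th percentile of each array) in each CTRL array; fed is experiment 2 and fasted and CL316243 are experiment 1, 6 arrays a group, and lines are group means. The fasted arrays stand apart from both other groups for all 6 gene lists, among them PPARα targets (5.01 to 5.87) and cholesterol genes (2.32 to 2.79). The heat shock list is apart only narrowly, with fasted arrays up to 4.15 and CL316243 arrays from 4.21. Single arrays set the neutrophil and acute phase spread.

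Mice that lack ATGL in white adipose tissue were fasted and fed in the same pair of experiments, so a shift of the experiment common to both genotypes cancels in the difference of their fasting effects. That difference was called for 8104 genes (33.6%). Of the 38 PPARα targets, 27 differed, 26 with a fasting effect below that of CTRL in AAKO livers. In AAKO livers 18 of the targets rose and 15 fell, with a median of 0.13 against 1.45 in CTRL. Mitochondrial fatty acid oxidation differed in 15 of 18 genes, all below the CTRL value, with a median of -0.43 in AAKO. For cholesterol synthesis the AAKO median was -1.82 with 21 of 24 genes lower, for endoplasmic reticulum chaperones -1.61 with 18 of 20 lower, and for heat shock genes -1.50 with 15 of 17 lower. The differences of the fasting effects were called for 13, 5 and 8 of those genes. Fed arrays of both genotypes come from experiment 2, so a shift of the experiment stays in each of these medians.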

How the data were processed

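RNA (200 ng per liver) was labelled with Cy3 and hybridised to 1-colour Agilent mouse arrays. The deposited intensity values are processed signals, background subtracted and detrended within each array per the file headers, which the authors made with Agilent Feature Extraction 10.10.1.1, without scaling between arrays. The authors' deposited table of log2 values, whose processing is not given in the sources used here, served as an alternative. Its 6 CTRL fasted columns share a median of 6.97 and its 6 CTRL fed columns one of 6.91, so its scaling between groups is unknown.

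Here log2 signals were set relative to the 75th percentile of each array over probes that are not controls, with outlier spots left out. Each gene was represented by its probe of highest mean signal over all arrays, and was tested if that probe cleared the background flag in 5 or 6 arrays of any group; 32994 probes were named by accession through RefSeq. limma 3.58.1 in R 4.3.3 fitted all 36 arrays with a wash batch term, and p-values were adjusted by Benjamini-Hochberg over 24098 genes. The fit was also run on simulated data with independent normal noise and no array, batch or experiment effect. Of 40 genes each, 40 set to -2, 36 to -1, 23 to -0.5, 19 to 0.5 and 33 to 1 were called. So were 5 genes that were not changed. Far fewer genes were changed there than were called in the real data, so these rates need not hold for the real data. Genes were named as the 12 highest and 12 lowest called genes with groups that did not overlap, the 2 highest and 2 lowest called members of each list, and key genes of the fasting response; others are Fabp1, Cd36, Ucp3, Irs2, Pnpla2, Hspa5, Derl3, Pdia6, Hsp90b1, Hspb1, Isg15 and Oas1a with the motif genes, chosen after their values were seen. Some genes that the rule names are not reported here. The comparison, gene lists and motifs were chosen with earlier results of these data known. Alternatives changed scaling, background correction, filters, probe choice, batch terms and single arrays. The number of arrays limits the precision, and probe positions are those of the files, on mm9, with no exon or UTR annotation.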

Additional observations from a re-analysis of the deposited data

Results flagged for a closer look

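In 31 of 362 groups of 6 arrays, over the named genes and the list means, 1 array lay apart from the nearest other by a share of the group's range above Dixon's critical value. Chance alone puts some groups past that value too. CTRL fasted replicate 2 had the highest level of its group for Gadd45b (3.85), Pfkfb3 (2.34) and the list mean of growth hormone and IGF axis (2.56), and the lowest level of its group for Fabp1 (9.27), Ndufs8 (5.74) and Ugp2 (3.63). CTRL fasted replicate 3 had the highest level of its group for the list mean of glycolysis and fructose use (4.83), and the lowest level of its group for Car3 (3.08), Cyp2c70 (4.58) and Igf1 (7.50). CTRL fasted replicate 5 had the highest level of its group for Steap4 (-0.64), the list mean of acute phase proteins (7.42) and the list mean of complement and coagulation (6.52), and the lowest level of its group for Acot7 (1.97), the list mean of PPARα targets (5.01) and the list mean of coenzyme A synthesis and turnover (3.41). CTRL fed replicate 1 had the lowest level of its group for Pfkfb3 (1.11). CTRL fed replicate 2 had the highest level of its group for Alb (10.90). CTRL fed replicate 4 had the highest level of its group for the list mean of lipogenesis (5.04), the list mean of lipid droplets and triglyceride turnover (2.79) and the list mean of cytosolic ribosomal proteins (7.37), and the lowest level of its group for Nipal1 (-7.54) and Pnpla2 (4.10). CTRL fed replicate 5 had the lowest level of its group for Defb1 (-4.45). CTRL fed replicate 6 had the highest level of its group for Mt1 (9.64), Mt2 (9.48), the list mean of metallothioneins and zinc transport (5.28) and the list mean of acute phase proteins (6.78), and the lowest level of its group for Elovl5 (4.67), Lect2 (5.36) and Srebf1 (6.48).

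The fasting effect differed between AAKO and CTRL livers for 53 of 126 named genes, by limma's interaction term at an adjusted p under 0.05. Over all genes tested the share was 33.6%. Many of the named genes were chosen by their CTRL difference, which is subtracted in this term, so the count is not a result about them. The values are the AAKO minus the CTRL difference of fasted and fed livers, in log2. For 27 genes the value was above 0. The largest in size were Ciart 4.75, Hspa1a 3.77, Lpin1 3.28, Cyp2b10 3.24, Cyp2b9 3.18, Cdkn1a 2.20, Got1 2.18 and Rab30 2.15. Next came Steap4 2.09, Thrsp 2.03, Insig1 1.79, Pnpla2 1.75, Per2 1.63, Cyp2a4 1.54, Nudt7 1.53 and Cyp2c70 1.53. Then followed Aass 1.19, Gadd45b 1.17, Angptl4 1.14, Acot11 1.06, Ctsl 1.03, Sdsl 1.01, Srebf1 0.85 and Slc25a42 0.77. The smallest were Asl 0.51, Arg1 0.34 and Aldh4a1 0.29. For 26 genes the value was below 0. The largest in size were Fgf21 -5.18, Il1rn -3.63, Vnn1 -3.36, Ehhadh -3.25, Cyp4a14 -3.19, Elovl3 -3.15, Plin2 -3.01 and Apoa4 -2.95. Next came Acot3 -2.36, Acot2 -2.06, Crat -1.91, Atf5 -1.79, Hmgcs1 -1.77, Fabp1 -1.39, Pecr -1.18 and Igfals -1.14. Then followed Calr -0.95, Isg15 -0.85, Klkb1 -0.83, Slc16a1 -0.82, Elovl5 -0.80, Psmd4 -0.67, Otc -0.62 and Haao -0.42. The smallest were Ndufs8 -0.39 and Ulk2 -0.34.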

How the results depend on the processing

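Over 14 other settings and the omission of each of the 12 arrays, no named gene called in the main comparison changed direction in a setting that tested it. Genes dim in 1 group, such as Cyp4a14, Tg and Hapln1, were not tested where all 12 arrays had to be well above background. Leaving out 1 array gave between 9946 and 10685 calls, 4433 to 4768 higher and 5411 to 5917 lower, with 8224 to 9188 for fasted against CL316243 and 7464 to 9158 for the difference between genotypes. Within wash batch 1, with 3 mice a group, 5955 genes were called, 2753 higher and 3202 lower, and the other comparisons gave 4520 and 5070 calls. Within wash batch 2 the difference between genotypes gave 3121 calls. Fewer arrays entered these fits. Scaling moved small differences, with 7 to 42 ribosomal protein genes lower. With the replicate block 10444 genes were called, 10285 of them shared with the main comparison in direction. Same-numbered arrays did not deviate together (correlations from -0.21 to 0.12, and 0 of 6 fed arrays were closest to their own number), so the samples share only a number. Kupffer cell markers called lower ranged from 0 within wash batch 1 to 10 without fasted replicate 5. Feeding state and experiment cannot be told apart under any of these settings, and probes near background limit the faintest genes.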
